A study of Mus musculus with 12 samples.

Results

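Pdx1 and 8 other transcription factor genes of pancreatic beta cells, Mafa, Nkx6-1, Nkx2-2, Neurod1, Isl1, Pax6, Insm1 and Mnx1, were followed across MIN6 cells depleted of Pdx1. They were taken as a named list of homeodomain, basic helix-loop-helix, Maf and zinc finger factors, and all 9 were among the 12643 genes of the count tables. MIN6 is a line from a mouse insulinoma, used as a model of beta cells. Cells at passage 29 received either an siRNA against Pdx1 or the control siRNA named NT by nucleofection, and RNA was taken 72 h later. TRAP (translating ribosome affinity purification) gave RNA bound to purified ribosomes, called IP RNA, beside total RNA of the same kind of culture. The 4 groups, NT total, Pdx1 siRNA total, NT IP and Pdx1 siRNA IP, held 3 libraries each. All groups share the line and the nucleofection. No source used here names the tagged ribosomal protein or the siRNA sequences. Nothing in the labels tells whether a group's libraries came from separate cultures, so every p-value covers the spread among libraries only, and that spread may be technical.

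These factors hold beta-cell identity together as a network. PDX1, a homeodomain protein, is needed for pancreas formation and later binds the insulin promoter together with the basic helix-loop-helix factor NEUROD1 and the leucine zipper factor MAFA, a marker of mature beta cells. NKX6-1, NKX2-2, PAX6, ISL1 and MNX1 are further homeodomain factors of the endocrine pancreas, several of which also keep genes of other islet cell types silent, and INSM1 is a zinc finger repressor of endocrine cells. ISL1, PAX6, NKX2-2, NEUROD1 and INSM1 are also made in other islet cell types, whereas PDX1, MAFA, NKX6-1 and MNX1 are more typical of beta cells.

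The sequences upstream of 3 of these genes are shown because Pdx1 was the siRNA's target and Nkx2-2 and Isl1 were the members that rose after its depletion. Each is the stretch of the RefSeq promoter window of build GRCm38.p6, 5′ to 3′ on the gene's strand, that lies outside the gene's GENCODE M21 exons. The Pdx1 stretch (chr5:147269847-147269958, plus strand) lies in an intron of the antisense RNA gene Plut. The Nkx2-2 stretch (chr2:147186456-147186652, minus strand) lies in introns of longer Nkx2-2 transcripts and of the antisense gene Nkx2-2os. The Isl1 stretch is at chr13:116309690-116309938 on the minus strand. Capitals mark the only motif match, CATCTG, the opposite-strand reading of the E-box CAGATG.
Pdx1: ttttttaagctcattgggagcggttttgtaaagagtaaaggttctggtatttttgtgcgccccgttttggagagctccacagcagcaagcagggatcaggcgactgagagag
Nkx2-2: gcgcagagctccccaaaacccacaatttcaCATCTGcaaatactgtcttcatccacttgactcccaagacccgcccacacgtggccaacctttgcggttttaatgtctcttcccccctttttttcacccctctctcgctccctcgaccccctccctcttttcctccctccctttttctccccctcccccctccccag
Isl1: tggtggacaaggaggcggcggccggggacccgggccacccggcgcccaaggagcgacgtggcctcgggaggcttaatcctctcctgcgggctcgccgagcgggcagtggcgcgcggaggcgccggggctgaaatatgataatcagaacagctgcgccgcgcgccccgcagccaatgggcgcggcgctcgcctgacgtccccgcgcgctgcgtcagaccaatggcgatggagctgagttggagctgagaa

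Motifs were searched on both strands in the 250 bases upstream of the RefSeq start, and 7 of the 9 genes had such a window (not Mafa or Insm1). CAGATG, in Nkx2-2 at position -220 from the start, is held by 14.4% of 32851 windows. TGCTGA, the core of the Maf recognition element, was found in Neurod1 at -50 and -44 and in Nkx6-1 at -12, and is held by 16.1% of windows. These TGCTGA matches lie upstream of the RefSeq start but within the span of the matched GENCODE transcripts. On the minus strand those transcripts begin at 79456751 (Neurod1) and 101664996 (Nkx6-1). The homeodomain cores TAATTA (4.84% of windows) and TAATGA (8.59%) and the NKX2 core TAAGTG (7.92%) were in none of the members' windows. TAATTA reads alike on both strands, and none of the matches overlapped another motif. A match here is a description of the letters, not a binding site.

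Libraries held 29430690 to 45806807 counts over all genes, and a member gene held between 214 counts (Mnx1) and 12839 counts (Isl1) in a library. Of 10 beta-cell markers, counting the older and the current symbol of Ero1b, 9 were measured. They were summed in CPM (counts scaled to a common library size, here with edgeR's TMM factors). In total RNA the sum was 108110 to 119076 CPM with NT and 97378 to 103842 CPM with Pdx1 siRNA. In IP RNA it was 209067 to 244009 CPM with NT and 189035 to 233243 CPM with Pdx1 siRNA, which overlap. The sum of NT total RNA was mainly Ins2 (mean 62437.1 CPM), Iapp (27420.5) and Ins1 (16963.5). By edgeR's test (adjusted p under 0.05) 3 of the 9 were higher and 3 lower in total RNA. In IP RNA 2 were higher and 4 lower. Of all genes 53% and 59.7% passed. The measured alpha-cell markers Gcg, Gc, Ttr, Irx1 and Irx2 (5 of 7) rose in both kinds of RNA after Pdx1 siRNA. Their summed level went from between 10765 and 13034 CPM to between 31495 and 35172 CPM in total RNA, and from between 19707 and 23899 CPM to between 61424 and 77522 CPM in IP RNA. Most of this sum was Ttr, with a mean of 10945 CPM in NT total RNA. Gcg had a mean of 763 CPM there, Gc 130, Irx1 5.54 and Irx2 1.56. Ppy was the only measured marker of 5 for delta, PP and epsilon cells, and went from at most 0.686 CPM to at least 1.96 CPM in total RNA. None of 6 exocrine and duct markers or 4 blood, vessel and stroma markers was measured. Whether the share of cells with an alpha-like pattern took part in the changes below was not tested, and in bulk RNA fewer cells of a type and less RNA per cell cannot be told apart. The gene Rpl32l, chosen after its values were known, split off a set of 4 IP libraries, those of Pdx1 siRNA and NT replicate 3. It held 22 to 37 counts there and 699 to 1726 in the other 8 libraries, and the split is shown here for this gene only. No member has a near-identical copy in another gene. A fit with this split as a term compares Pdx1 siRNA IP only with NT IP replicate 3. In IP against total RNA of Pdx1 siRNA cells it subtracts the gap between NT IP replicate 3 and the other NT IP libraries. Values of that fit are given below where they end a call.

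Pdx1 (gene 18609, chromosome 5, 147270097 to 147275848, GRCm38.p6) is the targeted gene and was lower in all 6 libraries of its siRNA. The NT total libraries held 118, 123 and 110 CPM and the Pdx1 siRNA total libraries 47.6, 57.4 and 47.9 CPM. In IP RNA the levels were 104, 115 and 111 CPM with NT and 50.6, 46.7 and 39.2 CPM with Pdx1 siRNA. The groups lay far apart in both kinds of RNA, so that the highest depleted library stood below the lowest NT library. On the log2 scale Pdx1 fell by 1.20 in total RNA (SE 0.10, adjusted p = 1.0e-07, edgeR) and by 1.27 in IP RNA (SE 0.10, adjusted p = 4.3e-08). Remaining Pdx1 mRNA was thus still measured in every depleted library, at 50.99 ± 5.54 CPM in total RNA and 45.5 ± 5.84 CPM in IP RNA (SD, n = 3).

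**Figure D1:**
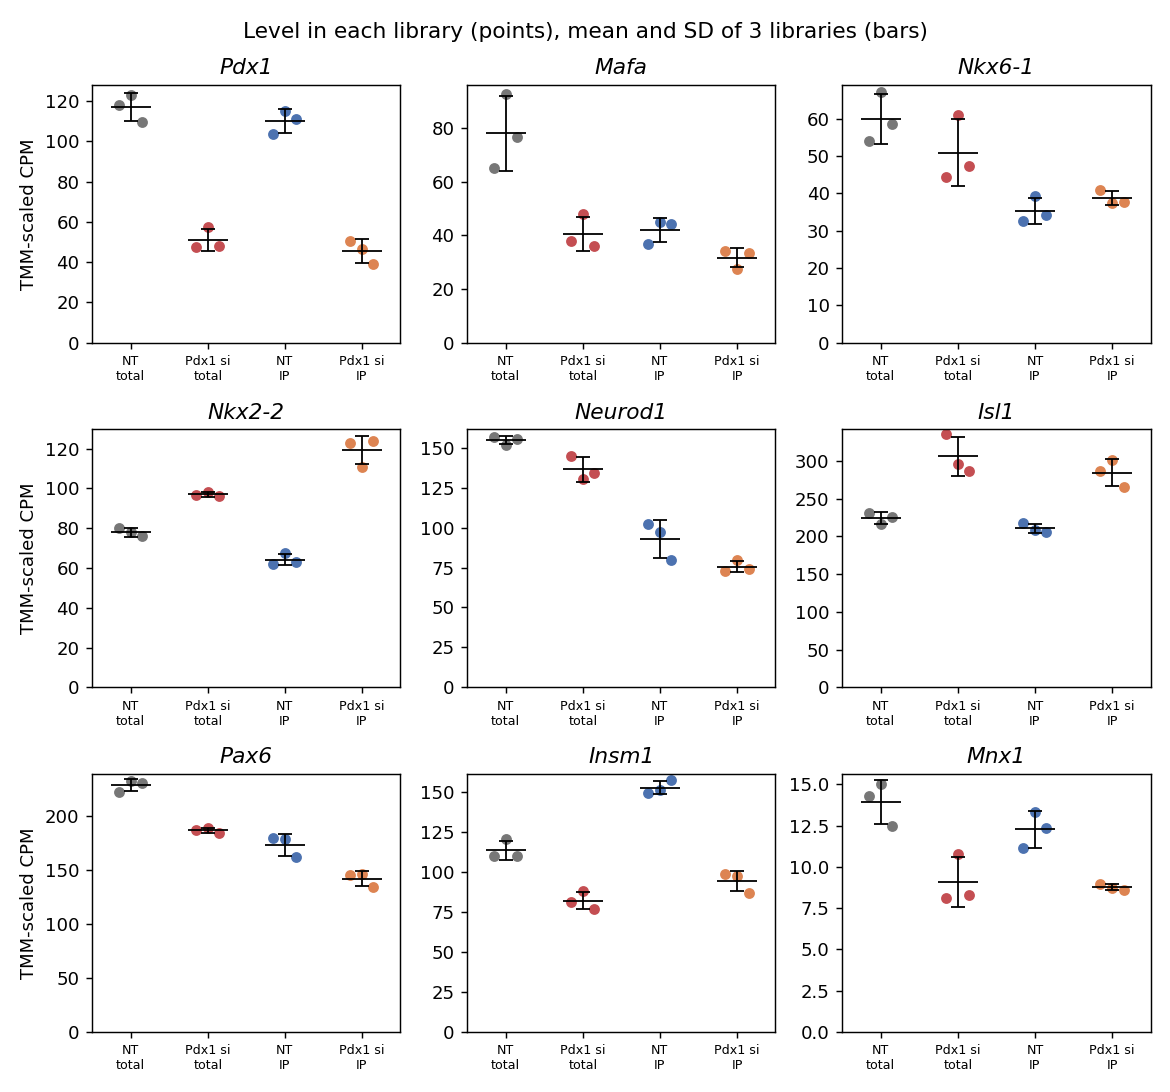
Level of each of the 9 genes in TMM-scaled CPM (y axis, from 0) in the 4 groups (x axis), with a point per library and the mean and SD of 3 libraries. Pdx1 drops in both kinds of RNA, Isl1 and Nkx2-2 go up, and the Nkx6-1 libraries of the NT and Pdx1 siRNA groups overlap.

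Of the 9 genes, 7 passed the test in total RNA, with 2 higher and 5 lower (adjusted p under 0.05 in edgeR's quasi-likelihood test). In that comparison 53% of all genes passed (23.8% higher and 29.2% lower), so the count alone does not set the members apart. In IP RNA 8 passed, 2 higher and 6 lower, beside 59.7% of all genes (29.2% higher and 30.4% lower). The members' median log2 fold change was -0.29 in total RNA, where that of all genes was -0.04, and -0.30 in IP RNA, where that of all genes was -0.01. Pdx1 was itself the siRNA's target and is part of these counts. For 8 of the 9 in total RNA the libraries of the groups did not overlap, beside 58.8% of all genes, and for 8 of the 9 in IP RNA, beside 64.9%.

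Mafa (gene 378435, chromosome 15, 75745501 to 75748321), encoding the factor that activates insulin transcription in mature beta cells, had the lowest fold change in total RNA after Pdx1 itself. Its NT total libraries held 64.9, 92.7 and 76.6 CPM and the Pdx1 siRNA total libraries 37.8, 47.8 and 36.0 CPM. In IP RNA the levels were 36.8, 44.9 and 44.1 CPM with NT and 34.0, 27.5 and 33.5 CPM with Pdx1 siRNA. The groups did not overlap in either kind of RNA, but in IP RNA they lay close to each other. Mafa fell by 0.94 in total RNA (SE 0.13, adjusted p = 3.2e-05) and by 0.40 in IP RNA (SE 0.14, adjusted p = 0.0193). The IP value missed the test without NT IP replicate 2 (-0.36, adjusted p = 0.063) and without Pdx1 siRNA IP replicate 2 (-0.31, adjusted p = 0.0944). The difference between the effects in IP and total RNA, 0.54 (SE 0.19), had an adjusted p of 0.173, so that a smaller effect in IP RNA is not shown.

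Neurod1 (gene 18012, chromosome 2, 79452637 to 79456636), the basic helix-loop-helix partner at the insulin E-boxes, moved little. In total RNA its libraries held 157, 152 and 156 CPM with NT and 145, 130 and 134 CPM with Pdx1 siRNA. In IP RNA they held 102, 97.1 and 79.6 CPM with NT and 73.1, 79.5 and 74.3 CPM with Pdx1 siRNA, where NT replicate 3 lay next to the depleted libraries. The change was -0.18 in total RNA (SE 0.09, adjusted p = 0.0927) and -0.30 in IP RNA (SE 0.09, adjusted p = 0.00907). The IP call was lost with the split of IP libraries as a term (-0.07, adjusted p = 0.602) and without NT IP replicate 1 (-0.22, adjusted p = 0.0617). The total RNA value passed with that term (-0.18, adjusted p = 0.0464) and without NT IP replicate 3 (-0.18, adjusted p = 0.0464) or Pdx1 siRNA total replicate 1 (-0.23, adjusted p = 0.0492). Exons of Cerkl on the same strand share 201 bases (7.37%) of the Neurod1 transcript and those of Gm26755 on the opposite strand 154 bases (5.64%), which leaves a small part of its counts uncertain.

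Among the homeodomain genes, Mnx1 (gene 15285, chromosome 5, 29473823 to 29478470), a factor of early pancreas and of beta cells, was the least abundant member and fell in both kinds of RNA. The NT total libraries held 14.3, 15.01 and 12.5 CPM and the Pdx1 siRNA total libraries 8.10, 10.8 and 8.30 CPM. In IP RNA the levels were 11.1, 13.4 and 12.3 CPM with NT and 8.98, 8.75 and 8.62 CPM with Pdx1 siRNA. No library of a depleted group reached an NT library. Mnx1 fell by 0.61 in total RNA (SE 0.11, adjusted p = 0.00023) and by 0.48 in IP RNA (SE 0.11, adjusted p = 0.00177).

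Pax6 (gene 18508, chromosome 2, 105668896 to 105698410), a paired-box and homeodomain factor of all islet endocrine cells, fell by a small amount with a narrow spread. Its total RNA libraries held 222, 233 and 231 CPM with NT and 187, 189 and 184 CPM with Pdx1 siRNA. In IP RNA they held 180, 179 and 162 CPM with NT and 146, 146 and 134 CPM with Pdx1 siRNA. The groups were apart in both. The change was -0.29 in total RNA (SE 0.07, adjusted p = 0.00276) and -0.29 in IP RNA (SE 0.07, adjusted p = 0.00264). With the split of IP libraries as a term the IP value was -0.19 (adjusted p = 0.156). Pax6 has 5 transcripts in the tables, whose counts differed by 1.75% to 6.81% within a library. A read in bases that they share may count for each row, so these are not separate transcript levels or separate measurements.

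Nkx6-1 (gene 18096, chromosome 5, 101659184 to 101664711), which keeps alpha-cell genes silent in beta cells, passed the test in neither kind of RNA. In total RNA its libraries held 54.0, 67.3 and 58.5 CPM with NT and 44.4, 61.0 and 47.4 CPM with Pdx1 siRNA, and the groups overlapped. In IP RNA they held 32.5, 39.3 and 34.2 CPM with NT and 40.9, 37.5 and 37.8 CPM with Pdx1 siRNA, again with overlap. The estimates were -0.23 in total RNA (SE 0.11, adjusted p = 0.0968) and 0.13 in IP RNA (SE 0.12, adjusted p = 0.344). The total RNA value passed the test without Pdx1 siRNA total replicate 2 (-0.38, adjusted p = 0.00749).

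Isl1 (gene 16392, chromosome 13, 116298270 to 116309688), a LIM-homeodomain factor of all islet endocrine cell types, rose by a like amount in both kinds of RNA. The NT total libraries held 231, 216 and 225 CPM and the Pdx1 siRNA total libraries 335, 296 and 287 CPM. In IP RNA the levels were 218, 209 and 206 CPM with NT and 286, 301 and 265 CPM with Pdx1 siRNA. Every depleted library was above every NT library. Isl1 rose by 0.45 in total RNA (SE 0.08, adjusted p = 0.00023) and by 0.43 in IP RNA (SE 0.08, adjusted p = 0.00028).

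Nkx2-2 (gene 18088, chromosome 2, 147176485 to 147195434), a homeodomain factor that endocrine progenitors and beta cells need, rose more in IP RNA than in total RNA. The NT total libraries held 80.3, 77.9 and 75.9 CPM and the Pdx1 siRNA total libraries 96.5, 98.4 and 96.3 CPM. In IP RNA the levels were 62.0, 67.4 and 63.1 CPM with NT and 123, 111 and 124 CPM with Pdx1 siRNA. The NT IP libraries were the lowest of all 12 and the Pdx1 siRNA IP libraries the highest. Nkx2-2 rose by 0.31 in total RNA (SE 0.07, adjusted p = 0.00123) and by 0.89 in IP RNA (SE 0.07, adjusted p = 3.5e-08). The difference, 0.58 (adjusted p = 0.0303, edgeR), kept its call in only 4 of 12 fits that left out a library, as detailed below.

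Insm1 (gene 53626, chromosome 2, 146221997 to 146225020), the zinc finger repressor, fell in both kinds of RNA. In total RNA its libraries held 110.0, 120.2 and 109.9 CPM with NT and 81.3, 87.8 and 77.0 CPM with Pdx1 siRNA. In IP RNA they held 149, 151 and 157 CPM with NT and 98.5, 97.3 and 86.8 CPM with Pdx1 siRNA, with a wide gap between the groups. Insm1 fell by 0.47 in total RNA (SE 0.08, adjusted p = 0.00012) and by 0.70 in IP RNA (SE 0.08, adjusted p = 1.9e-06).

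**Figure D2:**
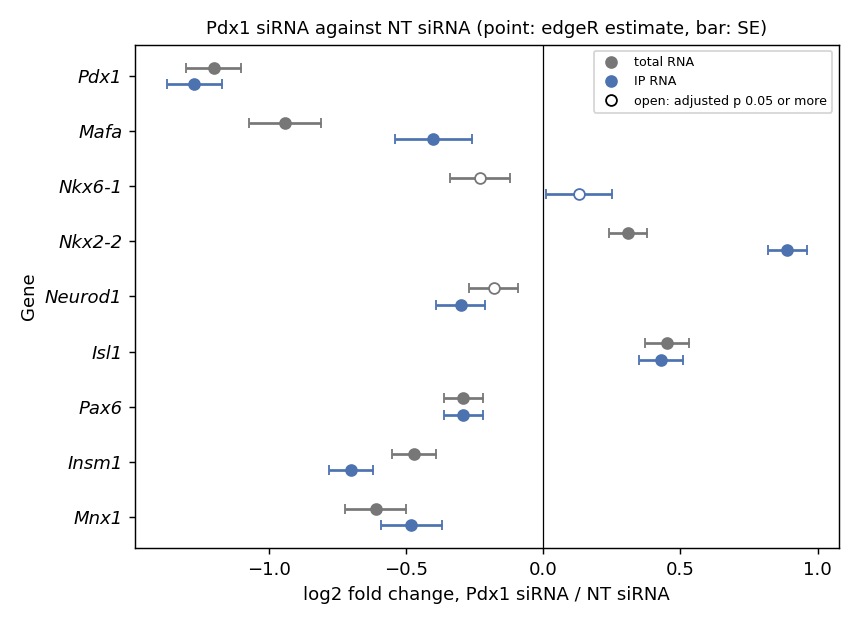
Log2 fold change of Pdx1 siRNA over NT siRNA (x axis) for each of the 9 genes (y axis) in total RNA and IP RNA, with points for the edgeR estimate, bars for its SE, and open points where the adjusted p was 0.05 or more. Pdx1 lies near -1.2 in both, Isl1 and Nkx2-2 lie right of 0, and Nkx6-1 is open in both.

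These values depend on the scaling. The TMM factors ran from 0.752 in a Pdx1 siRNA IP library to 1.23 in an NT total library, and within each kind of RNA all Pdx1 siRNA libraries had lower factors than the NT libraries. With no scaling factors, an alternative added after the data were seen, the median log2 fold change of all genes moved to -0.32 in total RNA and -0.32 in IP RNA. In that fit 17.6% of the genes called in total RNA were higher, where 45.0% were higher with TMM and 53% with upper-quartile factors. In IP RNA 20.0% were higher without factors and 49.0% with TMM. On the unscaled values Isl1 was at 0.18 (adjusted p = 0.131) in total RNA and 0.13 (adjusted p = 0.278) in IP RNA, and Nkx2-2 at 0.04 (adjusted p = 0.64) in total RNA and 0.58 (adjusted p = 5.7e-06) in IP RNA. Nkx6-1 passed in total RNA at -0.51 (adjusted p = 0.00204) and Neurod1 at -0.46 (adjusted p = 0.0017). The rise of Isl1 and of Nkx2-2 in total RNA is therefore a rise relative to most other genes, and not in the share of all counts beyond its error.

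In both total RNA groups many members were highest in the same library. Replicate 2 held the highest level of 6 members in NT total RNA and of 7 in Pdx1 siRNA total RNA. Pdx1, Mafa, Nkx6-1, Pax6, Insm1 and Mnx1 were among them in both groups. In NT IP RNA replicate 2 was highest for 5 members, Pdx1, Mafa, Nkx6-1, Nkx2-2 and Mnx1. In Pdx1 siRNA IP RNA it was highest for 3, Neurod1, Isl1 and Pax6. The share of all genes highest in replicate 2 was not counted. Over all genes the replicate 2 libraries of both total RNA groups deviated alike from their group means (r = 0.513). The pattern is thus not shown to be particular to the members. These library differences are part of the SD within each group.

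IP RNA was next set against total RNA, which compares the ribosome-bound with the whole pool of each mRNA. In NT cells 6 members passed the test, 1 higher and 5 lower in IP RNA, beside 69.7% of all genes (33.8% higher and 35.9% lower). In Pdx1 siRNA cells 6 passed, 2 higher and 4 lower, beside 75.1% of all genes (36.3% higher and 38.7% lower). The members' medians were -0.28 in NT and -0.17 in Pdx1 siRNA cells, and those of all genes -0.02 in each. Both comparisons rest on scaling across different kinds of RNA, and without scaling factors the medians of all genes were -0.31 and -0.34.

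The members lowest in IP RNA of NT cells were Mafa, at -0.90 (SE 0.13, adjusted p = 2.7e-05), Nkx6-1, at -0.76 (SE 0.11, adjusted p = 2.8e-05), and Neurod1, at -0.73 (SE 0.09, adjusted p = 3.0e-06). For Mafa this is a level of 41.9 ± 4.45 CPM in IP RNA beside 78.0 ± 14.0 CPM in total RNA (SD, n = 3). Pax6 was lower too, at -0.40 (SE 0.07, adjusted p = 0.00013), as was Nkx2-2, at -0.28 (SE 0.07, adjusted p = 0.00183). Pdx1, Isl1 and Mnx1 did not pass the test in either condition: in NT cells they were at -0.09 (adjusted p = 0.435), -0.09 (adjusted p = 0.336) and -0.18 (adjusted p = 0.136). In the unscaled fit all 3 were lower in IP RNA in both conditions, between -0.37 and -0.48. Insm1 was the only member higher in NT IP RNA, at 0.43 (SE 0.08, adjusted p = 0.00014), though at 0.14 (adjusted p = 0.22) without scaling factors.

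In Pdx1 siRNA cells Neurod1 stayed low in IP RNA at -0.85 (SE 0.09, adjusted p = 4.4e-07), and Pax6 at -0.39 (SE 0.07, adjusted p = 0.00012). Mafa was at -0.36 (SE 0.14, adjusted p = 0.0273) and Nkx6-1 at -0.40 (SE 0.12, adjusted p = 0.00553). The calls of Mafa and Insm1 were less firm than in NT cells when a library was left out. Mafa missed the test without Pdx1 siRNA IP replicate 2 (-0.26, adjusted p = 0.129) or Pdx1 siRNA total replicate 2 (-0.22, adjusted p = 0.171). With the split of IP libraries as a term Mafa was at -0.47, Nkx6-1 at -0.33 and Pax6 at -0.25, and these calls were lost. That term rests on NT IP replicate 3 here, so its losses cannot show that calls are less firm than in NT cells. Insm1 was at 0.20 (SE 0.08, adjusted p = 0.0292), which did not pass with upper-quartile factors (0.15, adjusted p = 0.0857), with the split as a term (0.13, adjusted p = 0.458), in a fit of only these groups (0.22, adjusted p = 0.065) or without Pdx1 siRNA IP replicate 1 or 2 or total replicate 1 or 3 (0.16 to 0.19), and turned to -0.12 (adjusted p = 0.272) without scaling factors. Nkx2-2 was at 0.30 (SE 0.07, adjusted p = 0.00103), and at -0.03 (adjusted p = 0.736) without scaling factors.

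**Figure D3:**
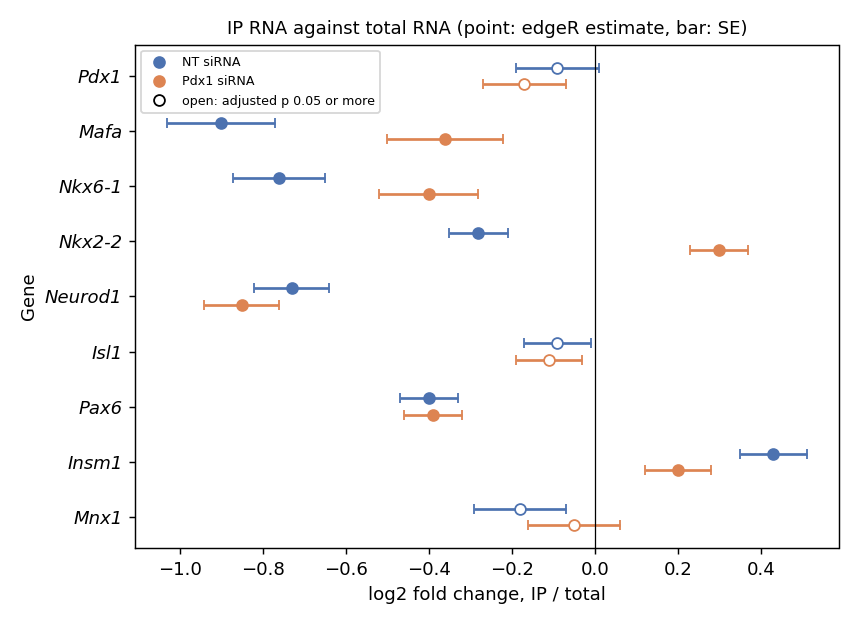
Log2 fold change of IP over total RNA (x axis) for each of the 9 genes (y axis) in NT and Pdx1 siRNA cells, with points for the edgeR estimate, bars for its SE, and open points where the adjusted p was 0.05 or more. Mafa, Nkx6-1, Neurod1 and Pax6 lie left of 0 in both conditions, Insm1 right of it, and Nkx2-2 changes side; the positive Nkx2-2 and Insm1 values of Pdx1 siRNA cells turn to -0.03 and -0.12 without scaling factors.

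The test of the difference, which asks whether the siRNA effect in IP RNA departs from that in total RNA, called 29 of 12643 genes (0.229%), 22 with a higher effect in IP RNA (0.174%) and 7 with a lower one (0.0554%). Nkx2-2 was the only member among them, at 0.58 (SE 0.10, adjusted p = 0.0303), and was 10th of all genes by p. The unadjusted p was under 0.05 for 2155 genes. For the other 8 members the difference lay between -0.23 (Insm1, adjusted p = 0.299) and 0.54 (Mafa), and for Pdx1 it was -0.08 (SE 0.14, adjusted p = 0.814). These do not show that the effects were equal. The Nkx2-2 value was close to the threshold: leaving out any library in turn gave 0.52 to 0.63, and the adjusted p went from 0.00548 without NT IP replicate 3 to at most 0.138. The call was kept in 4 of 12 such fits and lost without any NT total library, NT IP replicate 1 or 2, Pdx1 siRNA IP replicate 1 or 3, or Pdx1 siRNA total replicate 2. It was also lost with the split of IP libraries as a term (0.60, adjusted p = 0.209) and without scaling factors (0.54, adjusted p = 0.0616). DESeq2 gave 0.56 (adjusted p = 1.9e-06).

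The Nkx2-2 reads come from a crowded locus. The transcript that stands for the gene (NM_010919, 2120 bases) shares 654 bases with a shorter one (NM_001077632, 1053 bases), and each has bases of its own, 1466 and 399. The antisense gene Nkx2-2os (4345 bases) runs on the opposite strand and shares 278 exonic bases with Nkx2-2, which are 13.1% of the Nkx2-2 transcript and 6.4% of its own. No source used here says whether the counting used strand, so reads in the shared bases cannot be told apart.

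Nkx2-2os moved with Nkx2-2. It held 26.5, 23.5 and 21.3 CPM in NT total and 25.0, 29.6 and 27.6 CPM in Pdx1 siRNA total RNA, which overlap. In IP RNA it held 15.04, 18.1 and 14.2 CPM with NT and 36.8, 28.9 and 34.2 CPM with Pdx1 siRNA, which do not. The effect was 0.21 in total RNA (SE 0.11, adjusted p = 0.126; 0.33 and 0.0361 without NT total replicate 1) and 1.07 in IP RNA (SE 0.11, adjusted p = 1.3e-06), and the difference 0.86 (SE 0.16, adjusted p = 0.0399). That difference was lost with the split of IP libraries as a term (1.01, adjusted p = 0.126), without scaling factors (0.83, adjusted p = 0.0711) and in 8 of 12 fits that left out a library. Nkx2-2os in IP against total RNA was at -0.59 in NT cells (adjusted p = 0.00029) and 0.28 in Pdx1 siRNA cells (adjusted p = 0.0349), where the libraries overlapped. The latter missed the test with upper-quartile factors (0.23, adjusted p = 0.0669) and without Pdx1 siRNA IP replicate 1 or 3 or total replicate 1 or 3 (0.20 to 0.28), and turned to -0.05 (adjusted p = 0.709) without scaling factors. Nkx2-2os was described because of the overlap, after its values were known.

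The row of the shorter Nkx2-2 transcript held fewer counts relative to that of the longer one in IP RNA. A read in the 654 shared bases may count for both rows, so these are ratios of counts and not of separate transcript levels. Its counts were 0.511, 0.538 and 0.516 of those of the longer one in the NT total libraries and 0.457, 0.532 and 0.513 in the Pdx1 siRNA total libraries. In NT IP RNA they were 0.347, 0.368 and 0.340, and in Pdx1 siRNA IP RNA 0.426, 0.400 and 0.422. All 6 IP libraries were below all 6 total libraries, and the Pdx1 siRNA IP libraries above those of NT IP. Taking the row of the shorter transcript for the gene, with the same limit, Nkx2-2 was at 0.26 in total RNA (adjusted p = 0.0216) and 1.14 in IP RNA (adjusted p = 5.0e-08), with a difference of 0.88 (adjusted p = 0.00995). IP against total RNA was then -0.85 in NT (adjusted p = 9.1e-07) and 0.03 in Pdx1 siRNA cells (adjusted p = 0.765). The counts of Nkx2-2os were 0.226 to 0.330 of those of the longer Nkx2-2 transcript over all 12 libraries.

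**Figure D4:**
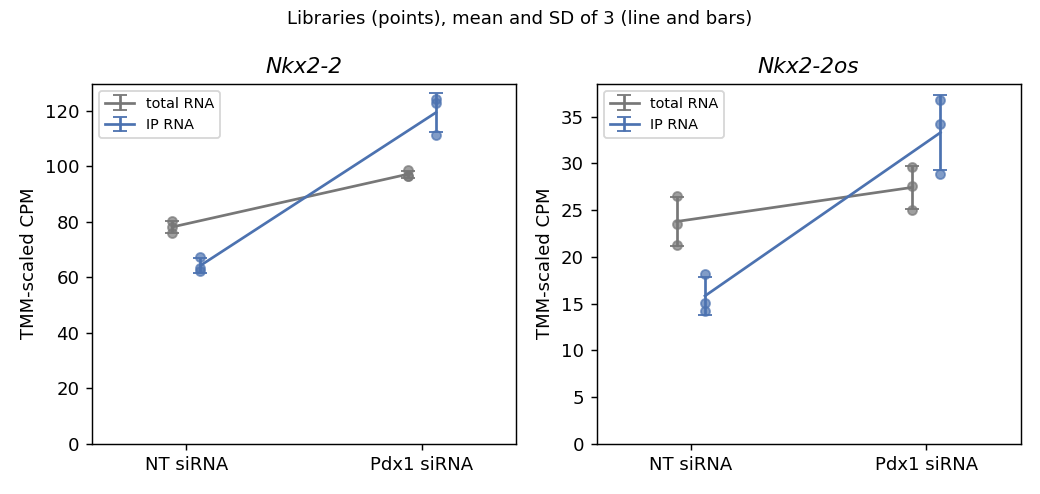
Level of Nkx2-2 (left) and Nkx2-2os (right) in TMM-scaled CPM (y axis, from 0) with NT and Pdx1 siRNA (x axis), with a point per library and lines and bars for the mean and SD of 3 libraries. The IP line of each gene starts below the total RNA line with NT siRNA and ends above it with Pdx1 siRNA, where the Nkx2-2os libraries overlap and the IP over total values turn to -0.03 (Nkx2-2) and -0.05 (Nkx2-2os) without scaling factors.

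The order of the members by level was read per kilobase of the transcript that stands for each gene, in CPM per kb. Lengths were those of the matched GENCODE transcripts. The Nkx6-1 transcript (3138 bases, 101658139 to 101664996) reaches past both ends of its RefSeq gene, and that of Mnx1 (from 29473034) past 1 end. Other members reach past less or not at all. The values of Nkx6-1 and Mnx1 may therefore be too low, and the place of Nkx6-1 in the order is not settled in any group. In NT total RNA Isl1 (89.1) led, followed by Pax6 (79.6), Neurod1 (56.7), Pdx1 (54.2), Nkx2-2 (36.8), Insm1 (36.6), Mafa (28.5), Nkx6-1 (19.1) and Mnx1 (6.21). Libraries overlapped between Neurod1 and Pdx1 and between Nkx2-2 and Insm1, so those neighbours are not ordered beyond their spread. In Pdx1 siRNA total RNA Isl1 (122 CPM per kb) still led, and Pdx1 (23.6) was sixth in the list after Insm1 (26.5), with overlapping libraries. Nkx6-1 (16.2) and Mafa (14.8) overlapped there as well.

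In NT IP RNA the order was Isl1 (83.8 CPM per kb), Pax6 (60.4), Pdx1 (51.0), Insm1 (49.2), Neurod1 (34.1), Nkx2-2 (30.3), Mafa (15.3), Nkx6-1 (11.3) and Mnx1 (5.47). Pdx1 overlapped with Insm1, and Neurod1 with Nkx2-2. In Pdx1 siRNA IP RNA Isl1 (113 CPM per kb) was followed by Nkx2-2 (56.3), which lay above Pax6 (49.5) with no overlap. Insm1 (30.4) and Neurod1 (27.7) overlapped, Pdx1 (21.1) came next, and Nkx6-1 (12.3) and Mafa (11.6) overlapped above Mnx1 (3.91).

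Proteins that work with these factors were followed as a list of 31 cofactors, such as the PBX and MEIS partners of PDX1, the LDB1 and SSBP partners of ISL1, and corepressor subunits, and all 31 were measured. In total RNA 4 were higher and 13 lower (median -0.11), and in IP RNA 6 were higher and 13 lower (median -0.15). These are 17 and 19 of 31 genes called, near the 53% and 59.7% of all genes. Rcor2, a subunit of the REST corepressor complex, fell by 0.84 in total RNA (SE 0.10, adjusted p = 3.3e-06) and by 0.73 in IP RNA. Tcf12, an E-protein partner of NEUROD1, fell by 0.49 and 0.68, and Pbx3 by 0.56 and 0.59. The histone deacetylase genes Hdac2 (-0.52 and -0.60) and Hdac1 (-0.30 and -0.64) fell, although 71.1% of the Hdac1 transcript has a near-identical copy, which leaves its counts uncertain, and its fall in total RNA was at -0.23 (adjusted p = 0.071) without NT total replicate 2. Pknox1, a TALE homeodomain partner, fell by 0.38 and 0.31.

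Tle1, a Groucho corepressor, rose by 0.31 in total RNA (0.04, adjusted p = 0.711, without scaling factors) and 0.53 in IP RNA. Ssbp4, of the LDB1-binding SSBP family, was the only cofactor with a difference between IP and total RNA, and was named after its value was seen. Its level went from 29.8 ± 1.20 to 39.8 ± 1.64 CPM in total RNA and from 41.9 ± 2.87 to 85.2 ± 7.68 CPM in IP RNA (SD, n = 3), with effects of 0.42 (adjusted p = 0.00041; 0.14 and 0.111 without scaling factors) and 1.02 (adjusted p = 3.7e-08). The difference was 0.60 (SE 0.11, adjusted p = 0.04), and it was lost with the split of IP libraries as a term (0.51, adjusted p = 0.336), without scaling factors (0.57, adjusted p = 0.0711) and in 9 of 12 fits that left out a library.

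Of 17 relatives of the members, 5 were measured, and Neurog3 and Pax4 are not among them. In total RNA 1 was higher and 4 were lower, and in IP RNA 1 was higher and 2 were lower, beside 53% and 59.7% of all genes called in either direction. Nkx6-2, a paralogue of Nkx6-1, fell by 0.54 in total RNA (SE 0.10, adjusted p = 0.00024) and 0.28 in IP RNA (adjusted p = 0.0149), where the call was lost with the split of IP libraries as a term (adjusted p = 0.108) and without Pdx1 siRNA IP replicate 2 (adjusted p = 0.0542). Among the Maf genes, the small Maf gene Mafk rose by 0.38 and 0.61, with 0.10 (adjusted p = 0.364) in total RNA without scaling factors. Mafg fell by 0.30 and 0.22, and missed the test in total RNA without NT total replicate 3 (-0.20, adjusted p = 0.0551) and in IP RNA without NT IP replicate 3 (-0.18, adjusted p = 0.0819) or Pdx1 siRNA IP replicate 2 (-0.16, adjusted p = 0.102). Maff fell by 0.42 in total RNA and was at -0.11 in IP RNA (adjusted p = 0.23), and Maf fell by 0.69 in total RNA and was at -0.44 in IP RNA (adjusted p = 0.0954; -0.68 and 0.015 without Pdx1 siRNA IP replicate 1). Without scaling factors both passed in IP RNA, Maff at -0.42 (adjusted p = 0.00052) and Maf at -0.74 (adjusted p = 0.0095).

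Transcription factor genes of other islet lineages and of islet progenitors were measured for 12 of 21. In total RNA 4 were higher and 2 lower (median 0.06), and in IP RNA 7 were higher and 2 lower (median 0.40). Of all genes 53% and 59.7% were called, 23.8% and 29.2% as higher. Irx1 and Irx2, Iroquois homeodomain genes of alpha cells that also served as alpha-cell markers above, rose by 0.85 and 0.86 in total RNA and by 1.19 and 0.77 in IP RNA. Etv1, an ETS factor gene, rose by 0.47 and 0.42, with a copy matching 21.8% of its transcript. St18, a MYT family gene, was at 0.16 in total RNA (adjusted p = 0.304) and rose by 0.60 in IP RNA (adjusted p = 0.00077). The total RNA value of St18 was 0.19 (adjusted p = 0.0293) without Pdx1 siRNA IP replicate 3, a library of the other kind of RNA. Tshz1, a zinc finger gene, fell by 0.47 and 0.37, and Onecut2 by 0.36 and 0.56. With the split of IP libraries as a term the IP values of Irx2 (0.54, adjusted p = 0.106) and Tshz1 (-0.25, adjusted p = 0.0907) missed the test. Without scaling factors Etv1 missed it in both kinds of RNA (0.20 and 0.12), and Irx2 (0.46) and St18 (0.31) in IP RNA.

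Reported target genes of these factors, such as the insulin genes, were measured for 20 of 21 symbols, the missing Ero1lb being the older name of Ero1b. In total RNA 9 were higher and 6 lower (median -0.07), and in IP RNA 8 were higher and 9 lower (median -0.04), that is 15 and 17 of 20 called, beside 53% and 59.7% of all genes. Among those that fell, Sytl4, which encodes the granule docking protein granuphilin, was at -0.83 and -1.07 and the ER calcium pump gene Atp2a2 at -0.58 and -0.88. Slc2a2, the glucose transporter GLUT2, was at -0.33 and -0.99, and at -0.19 (adjusted p = 0.0997) in total RNA without NT total replicate 2. The prohormone convertase genes Pcsk2 (0.98 and 1.02) and Pcsk1 (0.59 and 0.54) and the incretin receptor gene Gipr (0.50 and 0.67) rose. Ins1 was at -0.39 (adjusted p = 0.00901) and -0.28 (adjusted p = 0.0415), but missed the test in total RNA without NT total replicate 1 (-0.32, adjusted p = 0.0618). In IP RNA it missed the test without any NT library, without Pdx1 siRNA IP replicate 1 or 2 and without Pdx1 siRNA total replicate 2, with adjusted p-values of 0.0546 to 0.155. The same held with the split of IP libraries as a term (-0.34, adjusted p = 0.126) and in a fit of only the IP groups (-0.29, adjusted p = 0.0993). Ins2 was at -0.16 (adjusted p = 0.339) and 0.04 (adjusted p = 0.835), and at -0.43 and -0.28 without scaling factors, both past the test.

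**Figure D5:**
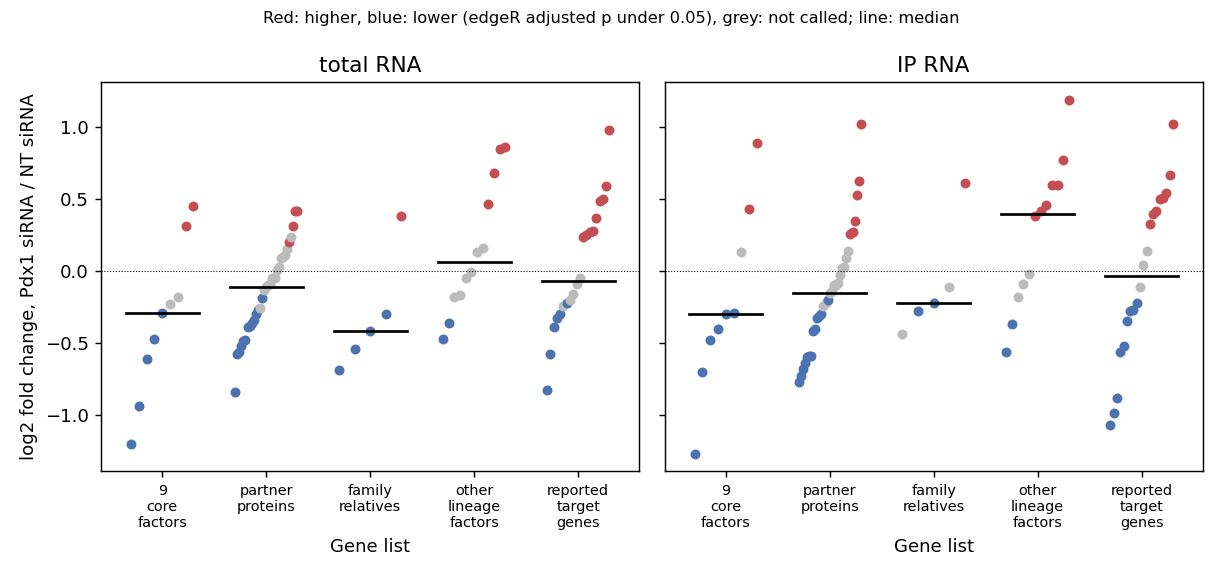
Log2 fold change of Pdx1 siRNA over NT siRNA (y axis) in total RNA (left) and IP RNA (right) for the measured genes of 5 lists (x axis), with a point per gene coloured by the edgeR call and a line for the median. Called genes lie on both sides of 0 in each list, and the median of the other lineage factors is 0.06 in total RNA and 0.40 in IP RNA.

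Genes with a pattern like that of a member over the 12 libraries were found by the root mean square difference of centred log2 CPM among the 10147 genes whose mean reached 5 CPM. Nearest to Pdx1 were Nup85, a nuclear pore gene (0.0967), Smtn, encoding smoothelin (0.117), and Fanci, of the Fanconi repair pathway (0.127). Nup85 went from 70.2 ± 4.59 to 34.9 ± 2.37 CPM in total RNA and from 75.5 ± 4.62 to 30.8 ± 2.39 CPM in IP RNA (SD, n = 3). Nearest to Mafa were Cntrob (0.174), the helix-loop-helix repressor gene Bhlhe41 (0.176) and Hnrnpul1 (0.176), which lie farther from it than the neighbours of Pdx1 do from theirs. Nearest to Nkx2-2 were Fam102a (0.111), the tectonic gene Tctn1 (0.112) and the mitochondrial carrier gene Slc25a22 (0.116). Fam102a went from 26.7 ± 0.307 to 39.2 ± 0.531 CPM in total RNA and from 25.2 ± 0.802 to 44.8 ± 2.18 CPM in IP RNA. The likeness is over libraries of 4 groups, so that it describes mainly the group means.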

How the data were processed

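For each library the authors deposited raw read counts per RefSeq transcript, as whole numbers without normalization. The submitters' processing notes name TopHat2, featureCounts and build mm10 and give no versions. How strand and reads with several matches were treated is not given in the sources used here. All tables list the same 17133 transcripts, of which 16838 matched a symbol in the RefSeq gene table (GRCm38.p6). The other 295 held 0.577% to 0.834% of a library's counts and were left out. The lowest transcript total was 141 counts, so rarer transcripts are not analysed here. The transcript with the highest total stood for its gene, which gave 12643 genes, 2634 of them with more than 1 transcript.

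The test was edgeR 4.0.16 (R 4.3.3), in 1 quasi-likelihood fit of 12 libraries with a mean per group and TMM factors. Adjusted p-values are Benjamini-Hochberg values over all genes, with 0.05 as the threshold, and the default filter removed 0 genes. Each SE is the log2 fold change over the root of F. Levels are TMM-scaled CPM, with mean ± SD. Counts are reads after PCR, so counting error is a lower limit of the error. Replicates of a group correlated at 0.99 or more across genes, after rounding, and no pair was within sampling noise.

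The members, the lists of cofactors, relatives, lineage factors, targets and markers, and the rule for named genes were chosen with earlier results of these data known. The rule names all members, up to 5 genes per list and siRNA comparison that passed the test with the smallest p, Ins1, Ins2 and Slc2a2, and the 3 genes most like Pdx1, Mafa and Nkx2-2 (offset 0.5 CPM), unnamed gene models passed over. A gene that the rule names is not reported here. Copies were alignments of at least 100 bases and 95% identity on GENCODE M21 transcripts. Promoter windows are from RefSeq. Alternatives were RLE and upper-quartile factors, no factors, DESeq2 1.42.0, other filters, Ins1 and Ins2 left out, another transcript per gene, only the groups compared, a replicate block, the split of IP libraries as a term, and each library left out. Figures were made with matplotlib 3.10.9 in Python 3.11.15.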

Additional observations from a re-analysis of the deposited data

Results flagged for a closer look

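The siRNA effect differed between IP and total RNA, by edgeR's test of the difference, for 1 member and 2 other genes described here. For Nkx2-2 the effect was higher in IP RNA by 0.58 in log2 terms (SE 0.10, adjusted p = 0.0303). For its antisense neighbour Nkx2-2os it was higher by 0.86 (SE 0.16, adjusted p = 0.0399), and these genes share exonic bases. For Ssbp4 it was higher by 0.60 (SE 0.11, adjusted p = 0.04). The 3 calls were kept in 4, 4 and 3 of the 12 fits that left out a library.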

How the results depend on the processing

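The number of genes called in the difference between IP and total RNA, 29 with 22 higher, moved most: it was 52 with upper-quartile factors (24 higher), 327 with DESeq2, 54 without Ins1 and Ins2, 5 with the split of IP libraries as a term, 11 without scaling factors, and 4 to 571 with a library left out. The highest, 571, came without NT IP replicate 3. Of the members, Nkx2-2 was the call, and 0 members were called with the split as a term or without scaling factors, and 0 to 1 with a library left out. In IP against total RNA of Pdx1 siRNA cells fewer members were called with the split as a term. That term rests on NT IP replicate 3 there, so it cannot show how firm the calls are. Without scaling factors, values turned for Nkx2-2 (-0.03), Insm1 (-0.12) and Nkx2-2os (-0.05) in that comparison, and for Ins2 in IP RNA (-0.28, adjusted p = 0.0036). The cause was not tested. Over all members, comparisons and alternatives, 979 values kept their side of the threshold, 32 missed it, 13 passed it anew and 2 turned. A change of sign counted as a turn only where the main or the alternative value passed the test. Some of the 979 therefore changed sign, such as Nkx6-1 in IP RNA, at 0.13 and at -0.18 without scaling factors. Others could hardly change. The fit without a filter was the same as the main fit, and a member with 1 transcript kept its counts when another transcript was taken. Replicate numbers are shared between groups, and the labels do not say whether they mark a pair. Same-numbered libraries correlated at -0.129 to 0.591 in their deviations from the group mean, and differently numbered ones at -0.571 to 0.306. The main fit used no pairing, and whether libraries of a number belong together was not tested. The fit with the number as a replicate block called 373 genes in the difference, and Nkx6-1 in total RNA passed in it (-0.24, adjusted p = 0.0302). The default filter and no filter gave the same genes. A fit of only the groups compared was not made for the difference, which uses all groups. Mnx1, with at least 214 counts in a library, had the least depth of the members.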
